A study of Bos taurus with 10 samples.

Results

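Interstitial collagens and the proteins that fibroblasts build around them were followed through 5 tissues of the lactating cow. The set holds 10 genes, COL1A2, COL3A1, COL6A1, COL12A1, DCN, SPARC, MMP2, TIMP1, TIMP3 and THY1, taken by their current symbols. Those symbols were joined to the array through a print layout that was found from the measured values. All 10 were found, on 14 array elements, among the 4366 named genes of the array. Collagens of types I and III form the fibrils of loose connective tissue, and decorin, type VI and type XII collagen attach to those fibrils and tie them to cells. Fibroblasts make most of this matrix, matrix metalloproteinases cut it, and their tissue inhibitors hold the proteases in check. In adipose tissue these fibrils surround the fat cells, and in mammary gland and liver they lie in the stroma between lobules.

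Subcutaneous, mesenteric and omental adipose tissue, mammary gland and liver, all from cattle at peak lactation, each gave 1 RNA sample. Each sample was hybridised on 2 cDNA arrays, once in each dye, with a standard mixed from tissues in the other dye, so the 10 arrays hold 5 samples. No genotype or treatment distinguishes the tissues. The number of cows, their breed and age, and any pooling of animals are unknown here. Values are log2 ratios of tissue over standard, each array centred on its median, and ± is the distance from the mean to either dye orientation.

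That error covers dye and array only. With 1 sample per tissue the variation among cows is unknown, so no p-value was computed. In place of a test, a gene is called higher or lower where the mean difference is at least 1 log2 unit (2-fold) and both orientations have its sign. The direction of the ratio is likely and not certain, since the labels do not state it: it was taken as Cy5 over Cy3, under which milk protein and hepatocyte genes are high in their own organs, and the other choice would turn every sign below. Each gene name depends on a print layout that was reconstructed from the values, and a single clone can carry a wrong name. In tissue pieces, fewer cells of a type and less RNA per cell cannot be told apart. Because each ratio is set against the same mixture, a level can be compared between tissues but not between genes.

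Between 15970 and 16245 of 16416 spots per array had a value, and duplicate spots correlated at 0.83 to 0.92. The 2 orientations of a tissue correlated at -0.78 to -0.66 before the sign was turned. All 280 spot values of the 14 elements were present, and the largest gap between duplicate spots of an element was 0.70. Genes that mark the organs were checked: 8 of 10 measured mammary epithelium genes were higher in mammary gland than in liver and 2 of 3 hepatocyte genes lower, but these lists also served to choose the direction. Of 20 listed adipocyte genes 6 were measured, and their median level was -0.11 in subcutaneous, 1.32 in mesenteric and 1.57 in omental adipose tissue, -0.08 in mammary gland and 0.59 in liver. By these genes the sample labelled subcutaneous stood below the other adipose depots. ADIPOQ, LEP and PLIN1 were not analysed here.

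Most of the matrix genes shared 1 pattern, with all adipose depots above both glandular organs. Of the 10 genes, 9 were above mammary gland and above liver in all 3 depots on both orientations. COL12A1 had this order with the tissue in Cy3 but not in Cy5. The same order was found in 530 of 4307 named genes with a value on all arrays (12.3%), a share counted after the values had been seen. TIMP3 is counted among the 9 by the mean of its elements, and neither element had the order alone. The first read -0.47 in subcutaneous adipose tissue and -0.34 in mammary gland. The second read -0.60 in mesenteric and -0.62 in omental adipose tissue and -0.35 in liver. The median level over the 10 genes was 0.79 in subcutaneous, 1.28 in mesenteric and 1.57 in omental adipose tissue, -1.14 in mammary gland and -1.42 in liver.

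**Figure D1:**
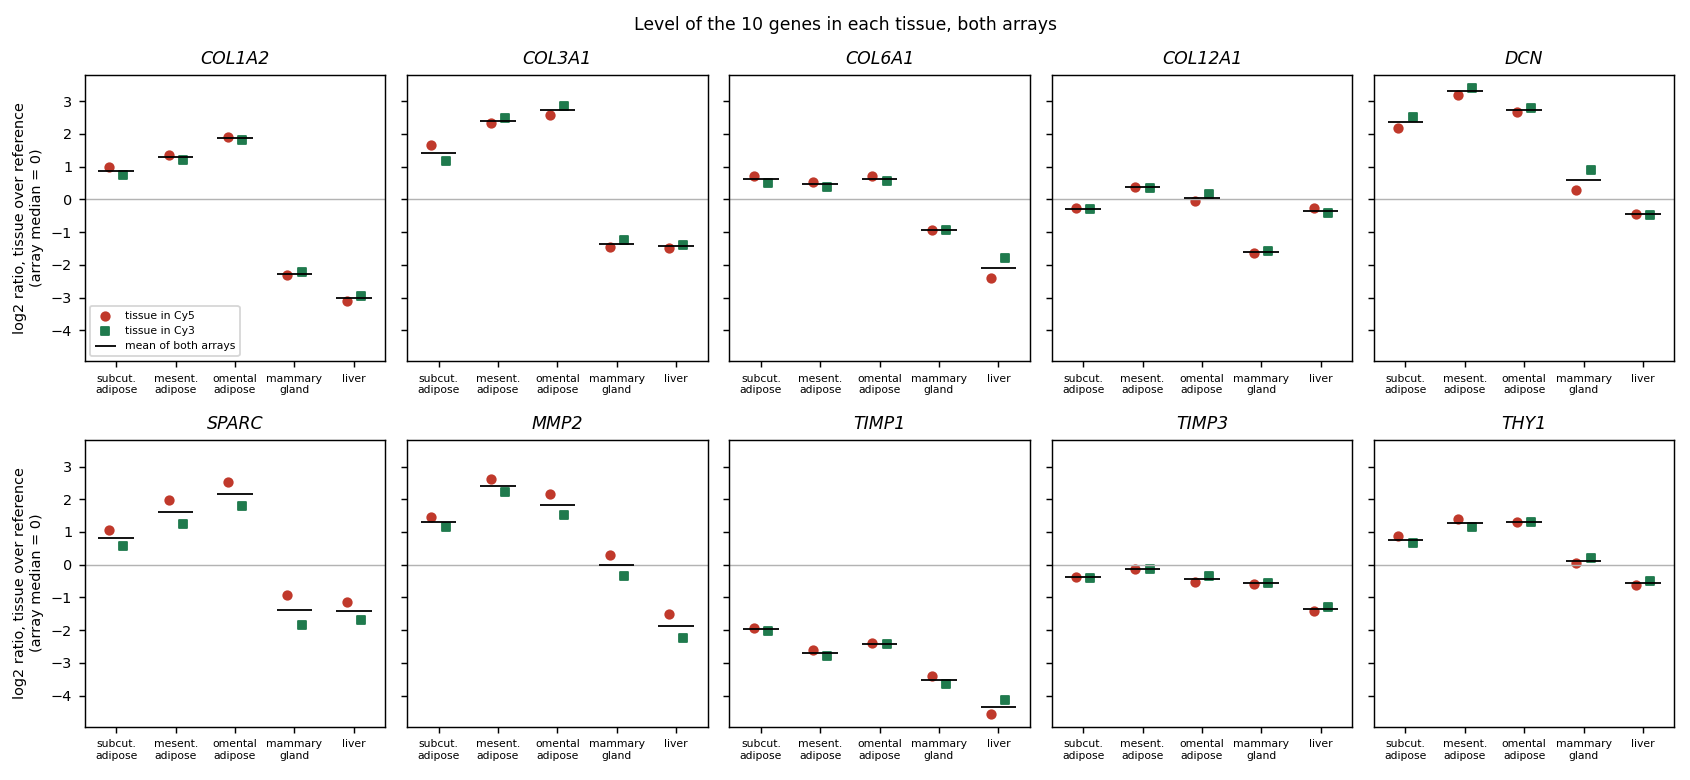
Level of each of the 10 genes in each tissue, as log2 ratio of tissue over the mixed standard (vertical axis), with 1 symbol per array (tissue in Cy5 or in Cy3) and a line at the mean of the 2 arrays. The 3 depots stand above mammary gland and liver for all genes except COL12A1, whose mean in subcutaneous adipose tissue (-0.28) is close to that in liver (-0.35). TIMP3 has this order only as the mean of its elements, and neither element has it alone.

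COL1A2, a chain of type I collagen, the main fibril of connective tissue, had the widest range of the 10 genes, 4.89 log2 units over the tissue means. With the tissue in Cy3 and then in Cy5, its level was 0.76 and 0.99 in subcutaneous, 1.22 and 1.35 in mesenteric and 1.81 and 1.91 in omental adipose tissue, -2.23 and -2.31 in mammary gland and -2.94 and -3.11 in liver. No tissue overlapped another, and the order was the same on both orientations. COL3A1, the single chain of type III collagen, which is mixed into the fibrils of soft organs, was at 1.17 and 1.66 in subcutaneous, 2.48 and 2.33 in mesenteric and 2.86 and 2.59 in omental adipose tissue, -1.25 and -1.47 in mammary gland and -1.38 and -1.47 in liver. Here the depots were spread out while mammary gland and liver lay 0.07 ± 0.06 apart.

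COL6A1 encodes a chain of type VI collagen, the beaded filament that lies close to cells, fat cells among them. Its level was 0.51 and 0.72 in subcutaneous, 0.39 and 0.54 in mesenteric and 0.55 and 0.72 in omental adipose tissue, -0.94 and -0.92 in mammary gland and -1.78 and -2.40 in liver. The depots overlapped one another in this gene, unlike in COL1A2. COL12A1 encodes a collagen that sits on the surface of type I fibrils. It read -0.29 and -0.28 in subcutaneous, 0.36 and 0.38 in mesenteric and 0.15 and -0.05 in omental adipose tissue, -1.59 and -1.64 in mammary gland and -0.43 and -0.26 in liver. Mammary gland was the lowest tissue for COL12A1, and the order of subcutaneous adipose tissue and liver differed between the orientations.

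DCN encodes decorin, a small proteoglycan that binds collagen fibrils and sets their spacing. Its level was 2.52 and 2.20 in subcutaneous, 3.42 and 3.19 in mesenteric and 2.78 and 2.66 in omental adipose tissue, 0.89 and 0.28 in mammary gland and -0.46 and -0.44 in liver. All 5 tissues kept their order on both orientations, with mesenteric adipose tissue on top. SPARC, also called osteonectin, is a collagen-binding protein that helps fibrils assemble and is made by fibroblasts, endothelial cells and fat cells. It was at 0.58 and 1.06 in subcutaneous, 1.23 and 1.96 in mesenteric and 1.79 and 2.52 in omental adipose tissue, -1.83 and -0.93 in mammary gland and -1.68 and -1.14 in liver. The Cy5 array read higher than the Cy3 array in every tissue for SPARC, by up to 0.90 log2 units in mammary gland, and mammary gland and liver changed places between orientations.

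MMP2 encodes gelatinase A, which degrades denatured collagen and basement membrane collagen. Its level was 1.14 and 1.46 in subcutaneous, 2.22 and 2.61 in mesenteric and 1.51 and 2.15 in omental adipose tissue, -0.34 and 0.30 in mammary gland and -2.25 and -1.51 in liver. Mammary gland lay between the depots and liver, well clear of both. TIMP1, a secreted inhibitor of many metalloproteinases, was below the standard everywhere, at -2.02 and -1.93 in subcutaneous, -2.78 and -2.60 in mesenteric and -2.43 and -2.41 in omental adipose tissue, -3.66 and -3.40 in mammary gland and -4.12 and -4.55 in liver. Subcutaneous adipose tissue was on top for TIMP1 on both orientations, which held for no other gene of the set.

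TIMP3 encodes the inhibitor that stays bound to the matrix. It had the narrowest range, 1.22 log2 units, with -0.40 and -0.38 in subcutaneous, -0.13 and -0.13 in mesenteric and -0.35 and -0.53 in omental adipose tissue, -0.57 and -0.58 in mammary gland and -1.30 and -1.40 in liver. Liver stood apart for TIMP3, the other tissues lay within 0.44 of one another, and subcutaneous and omental adipose tissue changed places between orientations. THY1 (CD90) is a surface protein of fibroblasts and adipose stromal cells. It read 0.65 and 0.88 in subcutaneous, 1.16 and 1.40 in mesenteric and 1.31 and 1.30 in omental adipose tissue, 0.19 and 0.04 in mammary gland and -0.50 and -0.62 in liver. Mesenteric and omental adipose tissue were not separated for THY1, and the other steps kept their order.

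The first comparison set the mean of the 3 adipose depots against liver. Of the 10 genes 9 were higher in adipose tissue and none lower, where 6.03% of 4326 named genes were called higher and 7.28% lower. The median difference was 2.80 log2 units for the 10 genes and 0.06 for all genes. COL1A2 was higher by 4.36 ± 0.16 log2 units (20.6-fold), MMP2 by 3.73 ± 0.15 (13.3-fold) and COL3A1 by 3.61 ± 0.06 (12.2-fold). DCN was higher by 3.24 ± 0.13, SPARC by 2.94 ± 0.05 and COL6A1 by 2.66 ± 0.40, so the fibril collagens and MMP2 led and the other matrix proteins followed. The inhibitors and the surface marker differed by less: TIMP1 by 1.97 ± 0.26, THY1 by 1.68 ± 0.14 and TIMP3 by 1.03 ± 0.02. The call on TIMP3 was lost under quantile normalisation (0.84) and without mesenteric adipose tissue (0.94). COL12A1 differed by 0.39 ± 0.11 and was not called.

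**Figure D2:**
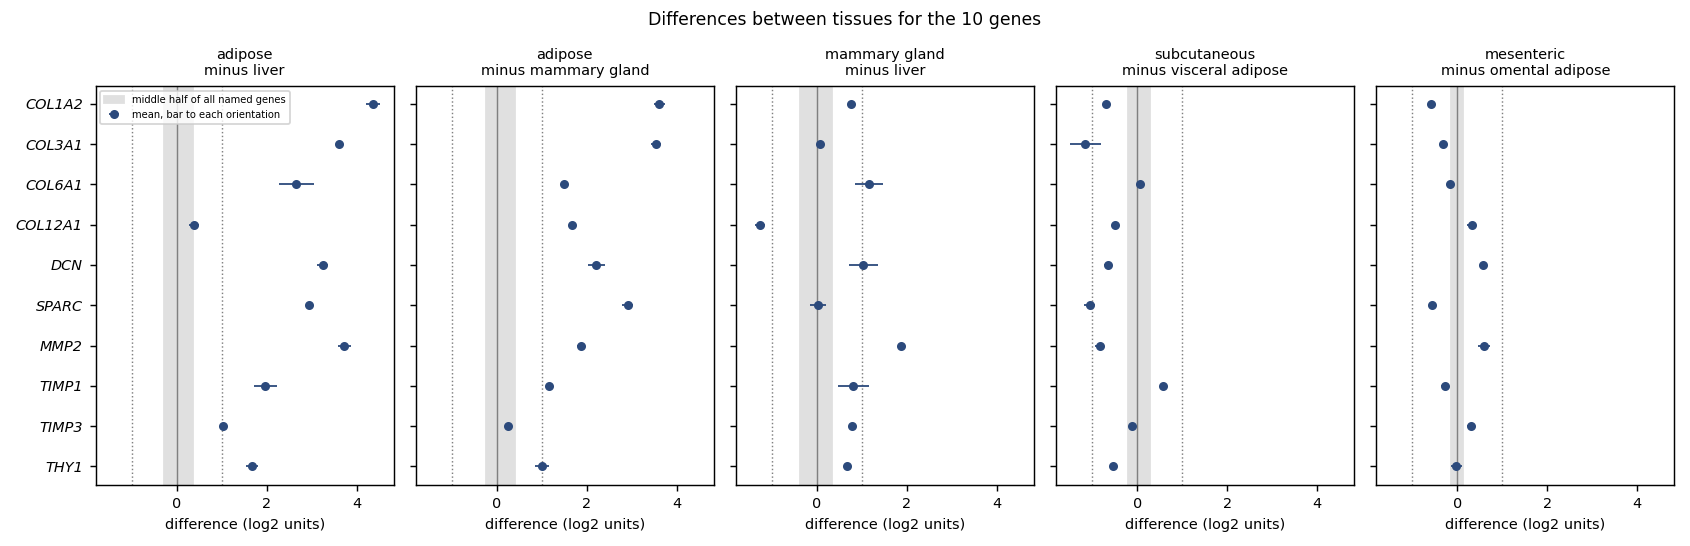
Difference of each gene in the 5 comparisons, in log2 units on the horizontal axis, with a point at the mean and a bar to each dye orientation. Dotted lines mark the 2-fold limit at -1 and 1, and the grey band runs from the lower to the upper quartile of all named genes. In adipose tissue against liver 9 genes lie beyond 1, and in mesenteric against omental adipose tissue all 10 lie within the limits.

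Against mammary gland, 9 of the 10 genes were again higher in adipose tissue and none lower, with 6.72% of 4313 named genes called higher and 2.85% lower. The median was 1.77 log2 units for the 10 genes and 0.06 for all genes. The fibril collagens led, COL1A2 with 3.61 ± 0.12 log2 units (12.2-fold) and COL3A1 with 3.54 ± 0.12 (11.6-fold), before SPARC with 2.91 ± 0.13 and DCN with 2.21 ± 0.19. MMP2 was higher by 1.87 ± 0.09, COL6A1 by 1.50 ± 0.08 and TIMP1 by 1.16 ± 0.08. COL12A1 was higher by 1.66 with the orientations almost equal, and TIMP3 differed by 0.25 ± 0.03 and was not called. THY1 lay just past the limit, with 0.85 on the Cy3 and 1.15 on the Cy5 orientation. Its difference was 0.85 without the arrays that carry the tissue in Cy5, 0.97 without the omental Cy5 array, 0.92 without mesenteric and 0.91 without omental adipose tissue. The call on TIMP1 was lost under quantile normalisation (0.52) and without subcutaneous adipose tissue (0.97). These differences share their adipose samples with those against liver, so the comparisons are not independent.

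Beside both comparisons, genes of other cell types also differed. In adipose tissue against mammary gland, 8 of 10 mammary epithelium genes were lower (median -2.63) and 11 of 14 myeloid genes higher (median 1.92). In adipose tissue against liver, 5 of 8 smooth muscle and pericyte genes were higher (3 under quantile normalisation). Of 14 myeloid genes, 5 were higher and 3 lower there (7 and 1 without centring, 7 and 0 under quantile normalisation). These means include the subcutaneous depot, where 10 of the 14 myeloid genes were higher than in the visceral depots. Their median level was 2.66 in subcutaneous, 1.18 in mesenteric and 1.52 in omental adipose tissue, 0.34 in mammary gland and 1.35 in liver. The myeloid counts thus do not describe adipose tissue as a whole, and by this median mesenteric adipose tissue did not stand above liver. Of 6 adipocyte genes, 2 were higher and 1 lower than in liver, and 3 were higher than in mammary gland. Of 9 endothelial genes, 1 was higher in each comparison. Against liver CIDEA (1.08) and CDH5 (1.04) also passed under quantile normalisation, and CIDEA without centring (1.17). Of all named genes, 6.03% were called higher and 7.28% lower than in liver, and 6.72% and 2.85% than in mammary gland. The part of these cell types in the matrix differences was not tested.

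Each depot alone, a comparison added after the values had been seen, gave much the same count. Against liver, 8 genes were higher in subcutaneous (9.66% of all), 9 in mesenteric (6.2%) and 8 in omental adipose tissue (5.74%). Against mammary gland, 8 genes were higher in subcutaneous (10.5%), 8 in mesenteric (6.54%) and 9 in omental adipose tissue (6.4%). The widest single gap of the set was COL1A2 in omental adipose tissue against liver, 4.88 ± 0.13 log2 units (29.5-fold).

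Mammary gland and liver differed less in these genes. Compared with liver, 3 of the 10 were higher in mammary gland and 1 was lower, where 4.44% of 4325 named genes were called higher and 9.34% lower. The median was 0.77 for the 10 genes and 0.01 for all genes. MMP2 was higher in mammary gland by 1.86 ± 0.06 log2 units (3.63-fold), COL6A1 by 1.16 ± 0.32 and DCN by 1.03 ± 0.32. COL12A1 was lower in mammary gland, at -1.27 ± 0.11. DCN fell short of the limit without the arrays that carry the tissue in Cy3 (0.72), COL6A1 without those that carry it in Cy5 (0.84), and COL12A1 when the median of its elements replaced their mean (-0.58). TIMP1 (0.81 ± 0.34), TIMP3 (0.78 ± 0.05), COL1A2 (0.75 ± 0.04) and THY1 (0.67 ± 0.01) were not called, and COL3A1 (0.07 ± 0.06) and SPARC (0.03 ± 0.18) lay near 0.

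Within adipose tissue, 2 of the 10 genes were lower in the subcutaneous depot than in the mean of the visceral depots and none was higher, where 3.69% of 4332 named genes were called lower and 6.28% higher. COL3A1 differed by -1.15 ± 0.35 log2 units and SPARC by -1.05 ± 0.12. Both lay near the limit: COL3A1 was -0.80 without the arrays that carry the tissue in Cy3, SPARC was -0.93 without those that carry it in Cy5, and SPARC was -0.91 without the omental Cy5 array. MMP2 (-0.83 ± 0.10), COL1A2 (-0.70 ± 0.06), DCN (-0.65 ± 0.08), THY1 (-0.53 ± 0.05) and COL12A1 (-0.49 ± 0.05) had the same sign on both orientations without being called. COL6A1 (0.06 ± 0.03) and TIMP3 (-0.10 ± 0.05) lay near 0, and TIMP1 had the opposite sign, 0.58 ± 0.01. The median of the 10 genes was -0.59, against 0.01 for all genes. Without centring, the median of all genes moved to 0.64 and that of the 10 genes to 0.03, no gene was called lower, and TIMP1 was called higher (1.20): the lower matrix values hold relative to the other genes of the same arrays.

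Against each visceral depot alone, COL3A1 and SPARC were called in 1 of the 2 comparisons. MMP2 was the 1 gene lower in subcutaneous than in mesenteric adipose tissue, by -1.12 ± 0.04 (4.19% of all genes called lower). COL3A1, at -1.31 ± 0.38, and SPARC, at -1.33 ± 0.12, were lower than in omental adipose tissue (3.25%).

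Genes of other cells moved with this depot. In subcutaneous against visceral adipose tissue, 10 of 14 measured myeloid genes were higher and 1 lower (median 2.53), while 4 of 6 adipocyte genes (median -1.73), 5 of 9 endothelial genes (median -1.01) and 4 of 8 smooth muscle and pericyte genes (median -0.97) were lower. The median level of the myeloid genes was 2.66 in subcutaneous, 1.18 in mesenteric and 1.52 in omental adipose tissue, and their levels ran from 0.71 to 6.63, from -2.30 to 2.61 and from -1.34 to 3.01 in the same depots. Without centring 11 of the 14 myeloid genes were higher and none of the endothelial genes was called lower. The adipocyte gene PNPLA2 (-0.89) and the smooth muscle genes TPM1 (-0.42) and TPM2 (-0.82) also lost their calls without centring. What these genes contribute to the values of COL3A1 and SPARC was not tested.

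Between the visceral depots none of the 10 genes was called, where 0.829% of 4340 named genes were called higher in mesenteric adipose tissue and 0.576% lower. The genes did not share a sign. MMP2 differed by 0.59 ± 0.13 and DCN by 0.58 ± 0.05, and COL1A2 by -0.58 ± 0.02 and SPARC by -0.56, each with the same sign on both orientations. COL3A1 differed by -0.32 ± 0.06, COL12A1 by 0.32 ± 0.11, TIMP3 by 0.31 ± 0.09, TIMP1 by -0.27 ± 0.08, COL6A1 by -0.17 ± 0.01 and THY1 by -0.03 ± 0.12. Without centring, all genes shifted by -0.33 in this comparison, MMP2 read 0.27 and DCN 0.26.

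COL1A2, COL12A1 and TIMP3 were read by several elements. The 2 elements of COL1A2 gave like values, with 4.13 and 4.60 log2 units for adipose tissue against liver and 3.47 and 3.75 against mammary gland. The print layout was chosen for agreement between clones of a gene, so this likeness cannot be counted as independent support. The 3 elements of COL12A1 did not: adipose tissue against liver gave 0.77, -0.67 and 1.08, and mammary gland against liver gave -0.58, -3.70 and 0.47. In adipose tissue against mammary gland they had 1 sign, at 1.34, 3.03 and 0.61, so that the lower level in mammary gland was read by each while its size was not shared. The call of COL12A1 as lower in mammary gland than in liver rested on its second element.

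The 2 elements of TIMP3 differed in the same way. The first read 2.22 for adipose tissue against liver and 2.02 for mammary gland against liver, and the second read -0.16 and -0.46. The TIMP3 means therefore describe neither element, and the call of TIMP3 as higher in adipose tissue than in liver rested on the first. Whether an element carries another transcript or a wrong name was not tested. Each of the other 7 genes had 1 element.

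**Figure D3:**
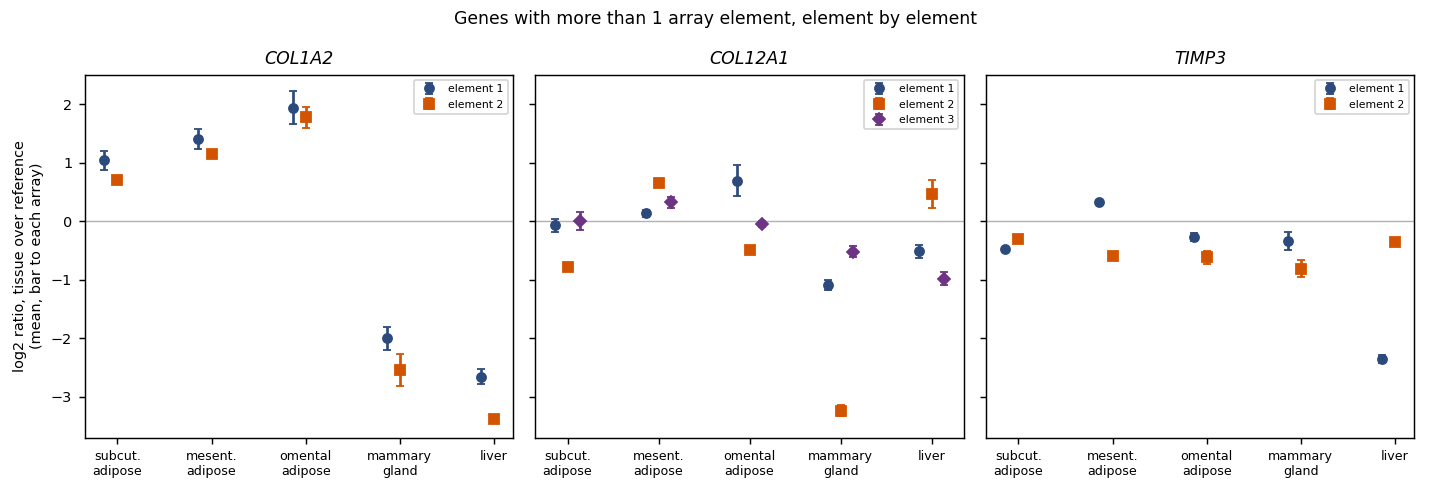
Level of each element of COL1A2, COL12A1 and TIMP3 in the 5 tissues, as log2 ratio of tissue over the mixed standard, with 1 symbol per element at the mean and a bar to each array. The elements of COL1A2 run together, while the second element of COL12A1 reads -3.24 in mammary gland and the elements of TIMP3 part in liver.

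The likeness of the 10 profiles was described by Pearson's r over the 10 arrays, which share the standard and pairwise the RNA. Over the 45 pairs, r ran from 0.27 to 0.99 with a median of 0.89, and 20 pairs reached 0.9. COL1A2 was closest to the median of the other members (0.99), followed by COL3A1 (0.98), THY1 (0.96), DCN (0.96) and SPARC (0.96). COL12A1 (0.65) and TIMP3 (0.78), whose elements disagreed, were farthest, with TIMP1 (0.87) before them.

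Among 451 other genes with a value on all arrays and a range of at least 2 log2 units over the tissue means, the 10 with the profile most like the median of the set were PEDS1 (r = 0.99), HTR6 (0.98), ALDOA (0.98), PEPD (0.98), FMOD (0.98), TKT (0.96), S100A10 (0.96), TGFB3 (0.94), FGL2 (0.93) and ANPEP (0.93). PEPD encodes prolidase, which splits the proline dipeptides left by collagen breakdown. Its level was 0.90 in subcutaneous, 1.82 in mesenteric and 2.52 in omental adipose tissue, -1.31 in mammary gland and -1.23 in liver. FMOD encodes fibromodulin, a fibril-binding relative of decorin, and read 0.11, 1.20 and 0.64 in the same depots, -1.60 in mammary gland and -1.98 in liver. ALDOA is a glycolytic enzyme and TKT an enzyme of the pentose phosphate pathway, HTR6 is a serotonin receptor and TGFB3 a growth factor. All but PEDS1 and ALDOA rested on 1 element.

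Of other interstitial collagens, 1 of 19 listed genes was measured. COL8A1, a short-chain collagen, differed by 0.03 ± 0.10 log2 units between adipose tissue and liver and by no more than 0.07 in size in any of the 5 comparisons. COL1A1, COL5A1, COL5A2, COL6A2, COL6A3, LUM, BGN, PDGFRA, PDGFRB and TIMP2 were not analysed here.

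The measured genes listed for collagen synthesis, export and crosslinking did not share the pattern of the collagens as a group. Of 33 listed genes 13 were measured, and 1 was higher and 3 were lower in adipose tissue than in liver, with a median of 0.07. PLOD2, which hydroxylates lysines for crosslinks, was higher by 1.42 ± 0.28 log2 units against liver and by 1.84 ± 0.16 against mammary gland, where it was the 1 gene called. COLGALT2, a collagen galactosyltransferase, was lower in adipose tissue than in liver (-2.19 ± 0.10), as were P4HB, a subunit of prolyl hydroxylase that also folds other secreted proteins (-1.68 ± 0.07), and PPIB, a prolyl isomerase of the secretory pathway (-1.13 ± 0.01). PPIB missed the limit without centring (-0.87) and under quantile normalisation (-0.97). None of the 13 was called between the depots with centring, and P4HB passed as higher in subcutaneous than in visceral adipose tissue without it (1.04).

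Proteoglycans went both ways. Of 6 measured genes, 2 were higher and 3 lower in adipose tissue than in liver. FMOD was higher by 2.63 ± 0.08 and SRGN, the granule proteoglycan of blood cells, by 2.24 ± 0.06, while the cell surface syndecans SDC2 (-3.82 ± 0.02), SDC1 (-1.93) and SDC4 (-1.61 ± 0.22) were lower. In subcutaneous against visceral adipose tissue, SRGN was higher by 3.11 ± 0.15 and SDC1 by 1.01 ± 0.05, and SDC2 was lower (-1.75 ± 0.16). Of 5 matricellular genes, 3 were higher in adipose tissue than in mammary gland: SMOC1 (1.80 ± 0.31) and TNC (1.74 ± 0.39), which encodes tenascin C, and CCN2, connective tissue growth factor (1.03 ± 0.05), which missed the limit under quantile normalisation (0.74). SMOC1 (-2.70 ± 0.07) and TNC (-2.43 ± 0.14) were lower in subcutaneous than in visceral adipose tissue, and no member of the 10 genes differed there by so much. Both depot differences were larger than the excess of the adipose mean over mammary gland. That excess of SMOC1 and TNC therefore describes the visceral depots, and not adipose tissue as a whole.

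Genes for breaking down and sensing collagen were few. Of 4 further metalloproteinases and regulators, none was called between adipose tissue and liver (MMP19, at 0.83 ± 0.06, passed without centring with 1.09) and 2 were higher than in mammary gland, MMP19 (2.78 ± 0.81) and BSG (1.18 ± 0.28), a surface glycoprotein that induces metalloproteinases. Of 5 genes of collagen receptors and uptake, 1 was higher in adipose tissue than in liver and than in mammary gland. CTSK, the collagen-cutting cathepsin K, differed by 2.65 ± 0.32 and 2.98 ± 0.16. It was also higher in subcutaneous than in visceral adipose tissue (2.87 ± 0.44), as was MMP19 (2.99 ± 0.22), opposite in sign to MMP2. BSG (-1.91 ± 0.01) and ADAMTS1 (-1.10 ± 0.09), a protease that cuts proteoglycans, were lower there, and ADAMTS1 missed the limit without centring (-0.48). For BSG the depot difference was larger than the excess of the adipose mean over mammary gland, so that excess describes the visceral depots. Of 8 genes of the TGF beta pathway, which drives matrix synthesis, 2 ligands were higher in adipose tissue than in liver, TGFB3 (1.87 ± 0.18) and TGFB2 (1.39 ± 0.01), and TGFB3 was the 1 gene higher than in mammary gland (1.46 ± 0.13). Without centring 5 of these 8 genes and 3 of the 5 receptor and uptake genes were higher than in liver, and under quantile normalisation 3 of the 8.

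Of 8 measured basement membrane genes, 4 were higher and none lower in adipose tissue than in liver (median 1.21), and the same count was higher than in mammary gland (median 0.56). COL4A1, a chain of the type IV collagen sheet, was higher by 2.39 ± 0.07 against liver and 1.50 ± 0.05 against mammary gland. The laminin chains LAMC1 (2.08 ± 0.10), LAMB1 (1.75 ± 0.03) and LAMA4 (1.46 ± 0.08) were likewise higher than in liver. In the subcutaneous depot 4 of the 8 were lower than in the visceral depots (median -0.88), COL4A1 by -2.07 ± 0.23, LAMA4 by -1.72 ± 0.01, LAMC1 by -1.72 ± 0.07 and LAMB1 by -1.24 ± 0.07. LAMB1 missed the limit without centring (-0.61). These are the same 4 genes that were higher in the adipose mean than in mammary gland. The median level of the 8 genes was -0.32 in subcutaneous, 0.26 in mesenteric and 0.38 in omental adipose tissue, -0.24 in mammary gland and -0.86 in liver. The higher adipose mean against mammary gland thus describes the visceral depots, and by this median the subcutaneous depot did not stand above mammary gland.

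Of 7 fibulins, elastin, fibronectin and related genes, 3 were higher and 1 lower in adipose tissue than in liver. FBLN1 (2.12 ± 0.11) and FBLN5 (1.56 ± 0.19), glycoproteins of elastic fibres, and ELN, elastin (1.10 ± 0.13), were higher, and FBLN2 (-1.80 ± 0.04) was lower. ELN missed the limit under quantile normalisation (0.92). FN1, fibronectin, which hepatocytes secrete into plasma, was lower in mammary gland than in liver by -4.60 ± 0.06 and higher in adipose tissue than in mammary gland by 3.79 ± 0.06, and it differed by -0.81 ± 0.12 between adipose tissue and liver. Within adipose tissue FBLN1 (-1.33 ± 0.22) and FBLN5 (-1.35 ± 0.03) were lower in the subcutaneous depot, calls that were lost without centring (-0.70 and -0.73). FBLN1 (1.41 ± 0.15) and FN1 (1.18 ± 0.01) were higher in mesenteric than in omental adipose tissue, and FN1 missed the limit without centring (0.87).

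Of 6 other fibroblast markers, VIM, the intermediate filament of mesenchymal cells and leukocytes, was the 1 gene higher in adipose tissue than in liver (3.51 ± 0.11) and than in mammary gland (2.47 ± 0.06), and NT5E (-1.20 ± 0.31) was lower than in liver. Against liver, MFAP4 and MFAP2 also passed without centring (1.07 and 1.24) and under quantile normalisation (1.03 and 1.13), and NT5E missed the limit without centring (-0.94). VIM was also higher in subcutaneous than in visceral adipose tissue (1.10 ± 0.06), where MFAP4, a microfibril protein (-1.22 ± 0.28), and ENG (-1.01 ± 0.14), the endoglin gene of endothelial and stromal cells, were lower. Both of those were lost without centring (-0.59 and -0.39).

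**Figure D4:**
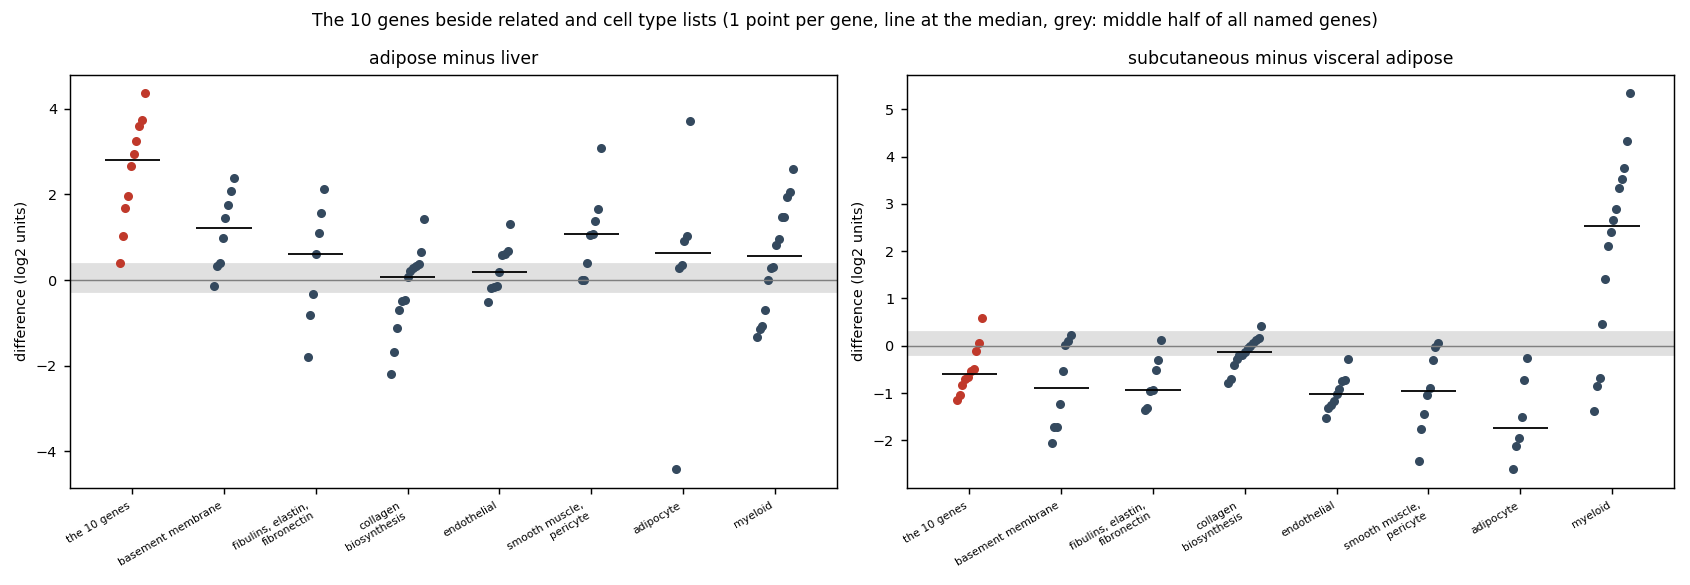
Differences in log2 units (vertical axis) of the 10 genes and of 7 lists of matrix and cell type genes, for adipose tissue against liver on the left and subcutaneous against visceral adipose tissue on the right, with 1 point per gene, a line at each median and a grey band between the quartiles of all named genes. On the left the 10 genes have a median of 2.80 and the basement membrane genes 1.21, and on the right the myeloid genes have a median of 2.53 and the adipocyte genes -1.73.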

How the data were processed

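The 10 arrays were read from the deposited value table. The deposited values were read as log2 ratios between dyes. The labels do not name the base, but 94 values stand at 16.61, which is log2 of 100000, and these were set to missing. Per the labels' protocols, 20 ug of RNA gave aminoallyl cDNA that was hybridised for 2 days at 42 C, with 4 spots per element over both slides. Per the submitters' processing notes, the scanner was a ScanArray 4000 and the image software GenePix 4.0. How background was corrected and arrays were normalised is not stated in the labels or headers. Array medians ran from -1.32 to 0.71, and signal over background is unknown. Precision is limited by the 1 RNA sample per tissue as well as by the number of arrays.

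Duplicate spots were averaged, the sign was turned where Cy3 carried the tissue, and each array was centred on its median. The channel descriptions of 1 omental array (tissue in Cy5) conflict. Its dye label was used, it correlated at -0.70 with the other omental array, and it was left out in an alternative. Annotation identifiers do not follow the table, so print layouts were searched for the one in which clones of a gene have like profiles. Over 636 pairs of clones from 475 genes held out of the search the mean cosine was 0.45 (median 0.73), and for the next join -0.01. Names were kept for plates 1 to 20, giving 5472 named elements, of which 5467 matched the RefSeq gene table of ARS-UCD2.0. Of the identifiers, 10884 had 1 symbol, 186 several and 5346 none. Elements of a gene were averaged.

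A difference was taken within each dye orientation and averaged over both. Simulated data were used only to check the code of the 2-fold rule. Their planted differences all lay past the limit and they held no variation among cows. They therefore do not measure how often the rule errs in these data. Between 13 and 36 genes passed the 2-fold rule in the contrast of dyes in the 5 comparisons. In mesenteric against omental adipose tissue 28 passed, beside 61 calls, and in adipose tissue against liver 22, beside 576 calls. Calls between the visceral depots are thus the least secure. Named genes were the 10 members, up to 5 genes per list and direction past the rule, FN1 and VIM, and the 10 nearest profiles. The members, lists and rule were chosen with earlier results of these data known. Alternatives changed centring, scaling, arrays, depots, elements, ceiling values and plates. Each depot alone, and the lists under other scalings, were added after seeing the data. Python 3.11.15, numpy 2.4.6, pandas 2.3.3 and matplotlib 3.10.9 were used.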

Additional observations from a re-analysis of the deposited data

How the results depend on the processing

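Over 460 recomputed values of single genes none changed sign where it had been called, 16 lost a call and 5 gained one. Of the others, 390 were classed as the same and 49 as moved without a change of call. In adipose tissue against liver and against mammary gland the count of 9 higher genes was 8 or 9 under every alternative run. Leaving out an array set gave 1 lower gene in subcutaneous against visceral adipose tissue each time, SPARC without the Cy3 arrays, COL3A1 without the Cy5 arrays or without the omental Cy5 array, in place of 2. Without centring that comparison had 1 higher gene, TIMP1, and 0 lower ones. With the median of elements 0 genes were lower in mammary gland than in liver. TIMP1 passed the limit in mammary gland against liver without centring (1.03), under quantile normalisation (1.59) and without the Cy3 arrays (1.15), and DCN was lower in subcutaneous adipose tissue under quantile normalisation (-1.03). The order of depots above both organs held in 9 of 10 genes with and without centring, for TIMP3 only as the mean of its elements. The causes were not tested.

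Over all named genes, calls without centring were 858 higher and 40 lower in subcutaneous against visceral adipose tissue (272 and 160 centred), 19 and 74 in mesenteric against omental adipose tissue (36 and 25), 435 and 232 in adipose tissue against liver (261 and 315) and 301 and 303 in mammary gland against liver (192 and 404). Quantile normalisation gave 218 and 156 in adipose tissue against mammary gland (290 and 123). Mesenteric against omental adipose tissue had 102 calls without the Cy3 arrays and 109 without the Cy5 arrays or the omental Cy5 array, against 61. Without centring the median of all genes moved to 0.32 against liver, 0.10 against mammary gland and 0.22 in mammary gland against liver. No paired analysis was possible, because each tissue gave 1 RNA sample and it is unknown whether tissues came from the same cow. Each difference was already taken within a dye orientation.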
